A study of Mus musculus with 24 samples.

Results

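The comparison set 6 liver libraries from mice that drank water with dichloroacetic acid (DCA) at 3.5 g/L, the highest dose of the study, against 6 control libraries from mice at 0 g/L. They are 12 of the 24 libraries of the study; the other 12 came from 1 and 2 g/L, with 6 each. All 4 groups were male B6C3F1 mice, a hybrid laboratory strain, 4 weeks old, and the exposure lasted 6 days. The labels name no engineered allele and no second agent, and they name the control by its dose of 0 g/L alone. The tissue was frozen liver taken across lobes, so every value is an average over hepatocytes and all other liver cells. Whether each sample came from its own mouse is not said, so a p-value here covers the variation among these samples, which may be technical. Genes were taken at 0.5 RPKM (reads per kilobase of gene, scaled to the mapped reads of a library) or more in at least 6 of the 12 libraries. This kept 6306 of 15582 genes held. At the edge of that rule, Cd4 was just inside with 0.5 RPKM in its sixth highest library, and Dcaf12l1 was just outside with 0.499 RPKM. Some genes passed only because of 1 group. Among them were Acot3, Cyp2a4, Gsta1 and Krt23 through the 3.5 g/L libraries, and Derl3 through the controls. The counts below include them, and for these genes the levels are read rather than the calls.

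Chlorinating drinking water forms DCA, which blocks the kinases that switch off pyruvate dehydrogenase and so favours the oxidation of pyruvate in mitochondria. The liver breaks it down with glutathione transferase zeta, the product of Gstz1, an enzyme that also serves tyrosine breakdown. Peroxisome proliferator-activated receptor alpha (PPARα) is a nuclear receptor of hepatocytes whose known target genes oxidise fatty acids in microsomes, peroxisomes and mitochondria. Hepatocytes also make most plasma proteins, among them albumin, complement and clotting factors, through the endoplasmic reticulum.

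Of the 6306 genes, 3233 were called at 3.5 g/L (51.3%) by limma's test at an adjusted p under 0.05: 2433 rose (38.6%) and 800 fell (12.7%). A difference is given throughout as log2(RPKM + 1) at 3.5 g/L minus control, with its standard error (SE). Adding 1 makes the difference of weakly expressed genes too small. Most called differences were small: 132 genes rose (2.09%) and 80 fell (1.27%) by at least 1, and 15 rose and 0 fell by at least 3. The values of the 6 treated libraries all lay above those of the 6 control libraries in 1432 genes (22.7%) and all below in 376 (5.96%). The excess of rises depended on scaling. Rises made up 75.3% of calls with RPKM as deposited, 50.9% after scaling by median ratio (1457 rose, 23.1%, and 1408 fell, 22.3%) and 49.6% after quantile normalization (1355 rose, 21.5%, and 1377 fell, 21.8%). With RPKM as deposited, the median difference of all tested genes was 0.10, against which the medians of gene groups below are to be read. Counts of members are likewise to be read against 38.6% rising and 12.7% falling, and after other scaling against the shares of that scaling.

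The first principal component took 68.2% of the variance and separated the groups, with controls at -21.0 to -16.9 and treated libraries at 14.4 to 21.7. Relative depth, read from the steps of low values, ran from 0.951 to 1.00 in controls and from 0.982 to 1.13 at 3.5 g/L. Every control title carries the tag L1 and every 3.5 g/L title the tag L3, so the tag, whose meaning is not stated, and the dose cannot be told apart. Hepatocyte markers were high in both groups, as the labelled tissue should show: Alb, which codes for albumin, ran from 17250 to 23480 RPKM in controls and from 13595 to 18901 RPKM at 3.5 g/L. The summed level of 10 hepatocyte markers was 31319 to 38373 RPKM in controls and 23608 to 29501 at 3.5 g/L; 9 of the 10 fell and 1, Hnf4a, rose. In bulk tissue, fewer cells of a type and less RNA per cell cannot be told apart. Markers of other cell types are given with the plasma protein and immune genes. Control replicate 8 stood apart in Lcn2, which codes for a neutrophil and acute-phase protein, at 153 RPKM against at most 4.67 in the other controls. Replicate 99 of 3.5 g/L stood apart in several Cyp2 genes.

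**Figure D1:**
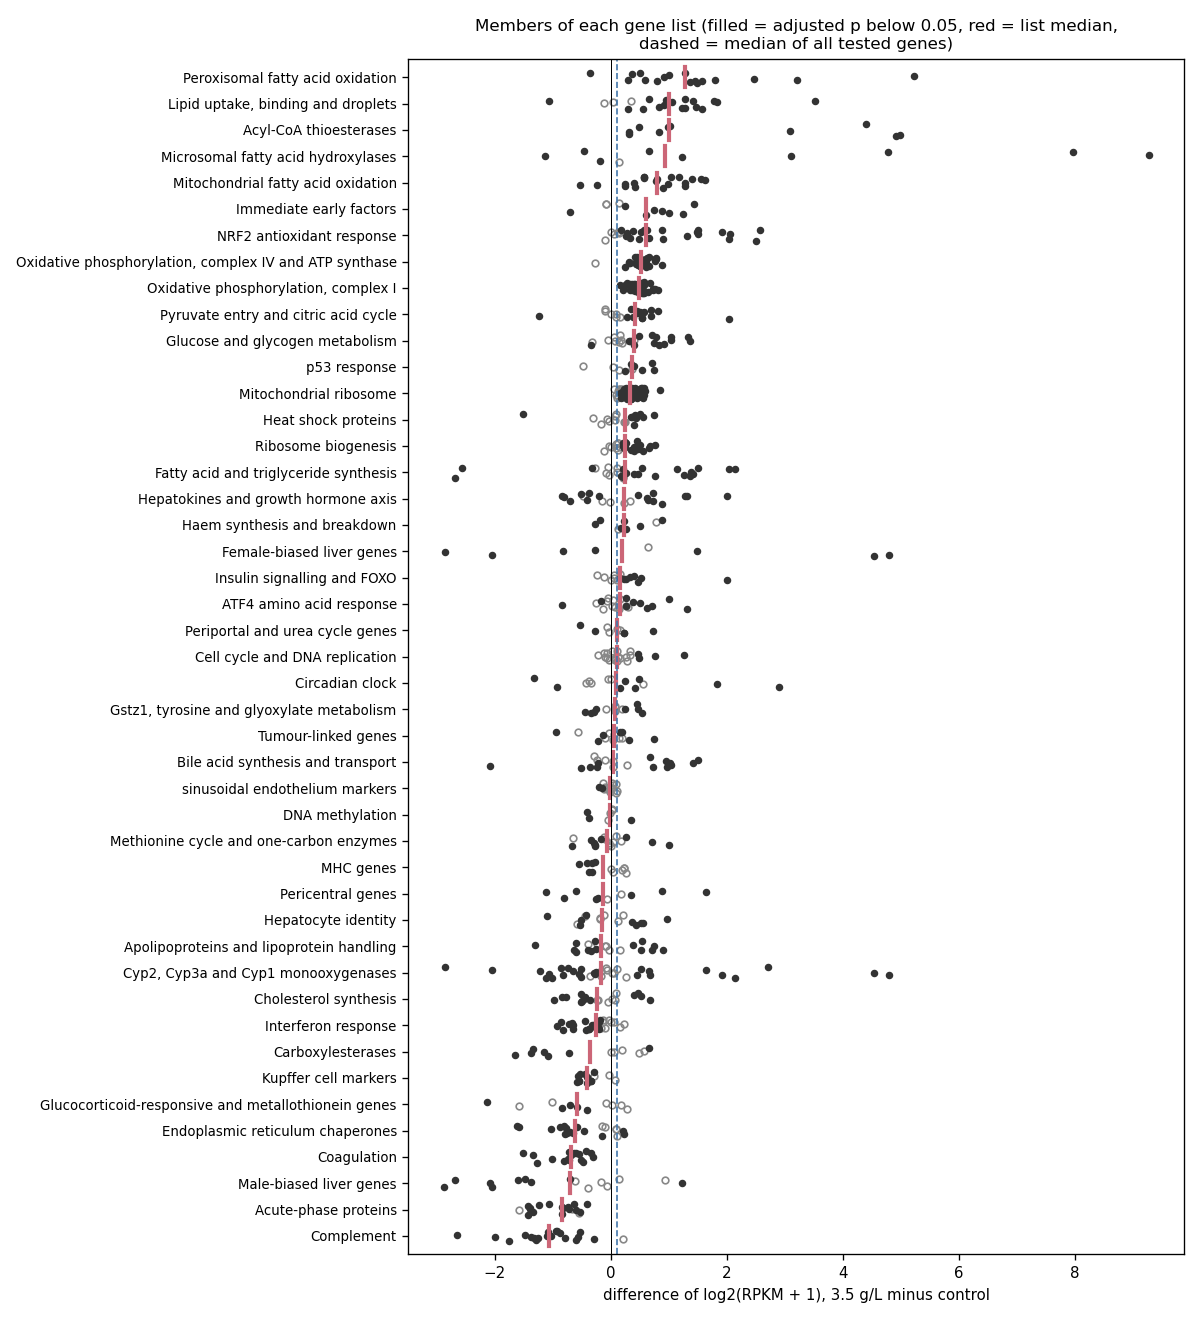
Each point is 1 tested gene of a list, placed by its difference of log2(RPKM + 1) between 3.5 g/L and control; filled points had an adjusted p under 0.05, red bars are list medians and the dashed line is the median of all tested genes (0.10). The lists of hydroxylases, thioesterases, peroxisomal and mitochondrial fat oxidation have medians from 0.79 to 1.28, and complement, acute-phase and clotting lists have medians from -1.06 to -0.69.

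Many of the largest rises at 3.5 g/L were in genes that break down fatty acids. Microsomal hydroxylases, acyl-CoA thioesterases and the enzymes of peroxisomal and mitochondrial fat oxidation rose in most of their members, several of them from levels near 0. Of 10 fatty acid hydroxylases tested, 6 rose and 3 fell; of 10 thioesterases, 10 rose; of 17 peroxisomal genes, 16 rose and 1 fell; of 20 mitochondrial genes, 18 rose and 2 fell. The list medians were 0.94, 1.00, 1.28 and 0.79. Cyp4a14, whose enzyme hydroxylates the end of fatty acid chains, lay at 0.0566 to 2.84 RPKM in controls (median 0.595) and at 737 to 1467 RPKM at 3.5 g/L (median 1126). Every treated library lay far above every control, with a difference of 9.26 (SE 0.26, adjusted p = 3.69e-11). Its gene lies on chromosome 4 at 115486200 to 115496142 on the minus strand (GRCm38, GENCODE annotation). The neighbouring Cyp4a10, at 115518264 to 115533649 on the plus strand, lay at 0.251 to 9.86 RPKM in controls and 679 to 1376 at 3.5 g/L. The groups again did not overlap, and the difference was 7.96 (SE 0.38). Cyp4a31 and Cyp4a32 rose by 4.77 (SE 0.19) and 3.10 (SE 0.17); these copies are near-identical, so reads may be split between them. The 3 that fell were Cyp4v3 (-1.14, SE 0.12), Cyp4f14 (-0.46, SE 0.10) and Cyp4f13 (-0.18, SE 0.07), the last with an adjusted p of up to 0.104 when 1 library was left out.

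Thioesterases split acyl-CoA into free fatty acid and coenzyme A. Acot3, a peroxisomal one, lay at 0.0143 to 0.0945 RPKM in controls and at 16.6 to 62.7 RPKM at 3.5 g/L (difference 4.91, SE 0.25). Acot1, the cytosolic form, lay at 0.741 to 2.93 RPKM in controls and 43.3 to 113 at 3.5 g/L (difference 4.98, SE 0.22). Replicate 98 held the lowest treated value of both, and of Acot2, yet all 3 genes stayed clear of the controls. Acot2, the mitochondrial form, had a difference of 4.39 (SE 0.21), and Acot4 one of 3.09 (SE 0.14). These genes form a cluster of similar copies, so their separate values are uncertain.

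In peroxisomes, Ehhadh makes the hydration and dehydrogenation steps of fatty acid oxidation, and Acaa1b the last cleavage. Ehhadh (chromosome 16, 21761287 to 21787807) lay at 24.2 to 36.4 RPKM in controls (median 30.9) and 733 to 1819 RPKM at 3.5 g/L (median 1154), a difference of 5.22 (SE 0.18, adjusted p = 3.38e-10). The lowest treated library, replicate 98, held many times the highest control value. Acaa1b had a difference of 3.21 (SE 0.22) and Crat, which makes acylcarnitines, one of 2.46 (SE 0.13). Acox3 was the peroxisomal gene that fell, by 0.37 (SE 0.05). In mitochondria, Acadm, the medium-chain acyl-CoA dehydrogenase, rose by 1.39 (SE 0.09), Cpt2, which regenerates acyl-CoA inside the organelle, by 1.28 (SE 0.10) and Decr1 by 1.62 (SE 0.10). Cpt1a, which admits fatty acids to mitochondria, rose little: 38.0 to 53.5 RPKM in controls and 46.8 to 64.0 at 3.5 g/L, overlapping groups with a difference of 0.25 (SE 0.10, adjusted p = 0.0483) that was no longer called after median-ratio scaling (adjusted p = 0.411). The genes that fell were Acadsb (-0.54, SE 0.07) and Acad10 (-0.24, SE 0.06). All 4 ketogenesis genes tested rose, with a median of 0.72.

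**Figure D2:**
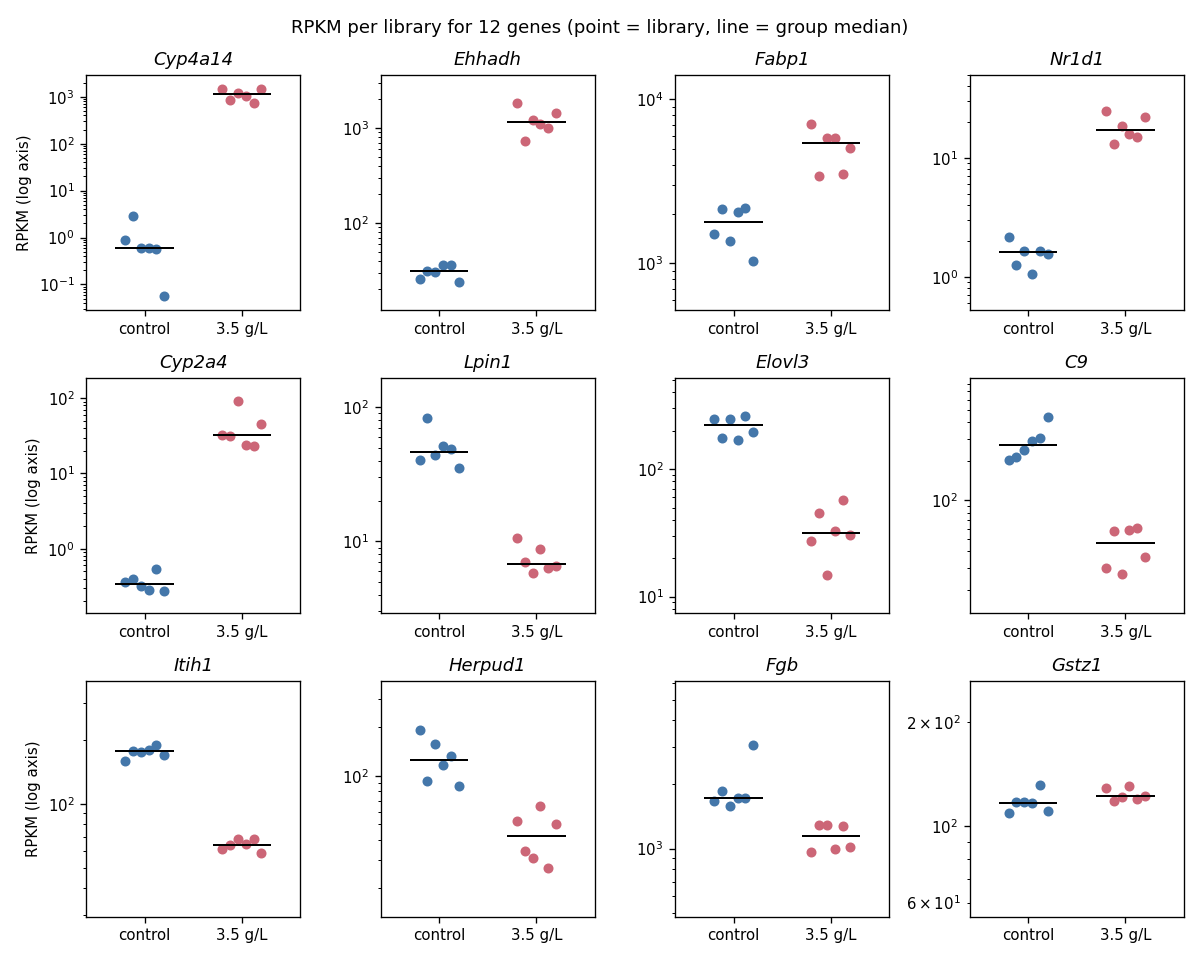
RPKM on log axes for 12 genes; each point is 1 library, 6 per group, and lines are group medians. Cyp4a14 sits between 0.0566 and 2.84 RPKM in controls and at 737 RPKM or more at 3.5 g/L, Lpin1, Elovl3, C9, Itih1 and Herpud1 sit lower at 3.5 g/L with no overlap, and Gstz1 overlaps.

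Genes that take up, bind and store fat also rose: 16 of 20 tested rose and 1 fell, with a median of 1.00. Fabp1, the main fatty acid binding protein of hepatocytes, lay at 1039 to 2167 RPKM in controls and 3410.2 to 7068 at 3.5 g/L (difference 1.57, SE 0.22, adjusted p = 5.74e-05). Cd36, a fatty acid transporter of the cell surface, lay at 1.85 to 5.76 and 9.28 to 20.0 RPKM (difference 1.83, SE 0.20). The groups of both genes did not overlap. Aldh3a2, which oxidises fatty aldehydes, rose by 3.52 (SE 0.26). G0s2, an inhibitor of the lipase that opens fat droplets, rose by 1.78 (SE 0.33), and Mgll, a lipase for monoglycerides, by 1.47 (SE 0.14). Angptl4, a secreted inhibitor of lipoprotein lipase, went from 27.0 ± 3.07 to 66.7 ± 3.38 RPKM (mean ± SD, n = 6 each; difference 1.28, SE 0.07). Fabp5, the binding protein best known from skin, fell by 1.07 (SE 0.21) with overlapping groups.

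PPARα binds a direct repeat of the letters AGGTCA with 1 base between the copies. Promoter windows from RefSeq (GRCm38.p6; 250 bases before to 50 after a gene's start) were found for 50 of the 70 fat oxidation, ketogenesis and lipid uptake genes that rose. The exact repeat AGGTCANAGGTCA, searched on both strands, was in 0 of their 58 windows and in 13 of 32851 windows of all genes (0.0396%). With the fourth base of each copy free (AGGNCANAGGNCA), it was in 1 of the 58 windows (1.72%), that of Fabp1, and in 125 of all windows (0.381%). A single copy was in 17.2% of the 58 windows and 16.3% of all. These are letter matches in a short window and say nothing of sites outside it. The Fabp1 window, chr6:71199629-71199928 on the plus strand, is printed 5′ to 3′ because it is the one with a match, which is in capitals, lies on the minus strand and begins 67 bases before the start:
Fabp1: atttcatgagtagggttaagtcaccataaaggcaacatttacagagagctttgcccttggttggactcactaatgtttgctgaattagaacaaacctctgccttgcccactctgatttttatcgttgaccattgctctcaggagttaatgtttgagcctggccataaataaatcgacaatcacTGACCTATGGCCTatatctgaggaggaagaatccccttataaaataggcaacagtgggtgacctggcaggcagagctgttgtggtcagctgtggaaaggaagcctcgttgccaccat

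Fat synthesis genes moved in both directions, with large changes each way. Of 26 tested, 16 rose and 3 fell with RPKM as deposited (median 0.24), and 10 rose and 3 fell under either other scaling. Lpin1 codes for lipin 1, which makes diacylglycerol and also acts with PPARα in the nucleus. It lay at 35.2 to 82.7 RPKM in controls (median 46.2) and 5.81 to 10.7 RPKM at 3.5 g/L (median 6.78), on chromosome 12 at 16535669 to 16610966. No treated library reached any control, and the difference was -2.56 (SE 0.18, adjusted p = 1.19e-07). Elovl3, an elongase of very long chains that is higher in male liver, fell from 215 ± 40.2 to 34.7 ± 14.9 RPKM (difference -2.69, SE 0.25). Its relative Elovl6, which lengthens palmitate, rose from 5.57 ± 1.93 to 27.1 ± 3.94 RPKM (difference 2.13, SE 0.16). Fasn, fatty acid synthase, rose by 1.42 (SE 0.19), Me1, malic enzyme, which supplies NADPH, by 2.04 (SE 0.13), and Mogat1, a monoacylglycerol acyltransferase, by 1.5 (SE 0.08). Dgat2, which completes triglycerides, fell by 0.34 (SE 0.08).

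Nuclear genes of the mitochondrial respiratory chain rose together by small amounts. Of 37 complex I genes, 36 rose (31 after median-ratio scaling) and 0 fell, with a median of 0.48 and a highest difference of 0.81. Of 29 genes of complex IV, cytochromes and ATP synthase, 28 rose (26) and 0 fell, with a median of 0.52. Ndufb8, an accessory subunit of complex I, went from 52.3 ± 6.11 to 92.3 ± 6.41 RPKM (difference 0.81, SE 0.08), and Cox5b, a subunit of complex IV, from 69.7 ± 7.34 to 128 ± 9.35 RPKM (difference 0.88, SE 0.08). Of 77 proteins of the mitochondrial ribosome, 67 rose and 0 fell, with a median of 0.33; 46 rose after median-ratio scaling and 35 after quantile normalization. The largest of these was Mrps18b, with 0.84 (SE 0.10).

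Around pyruvate dehydrogenase, the complex whose kinases DCA inhibits, 13 of 20 genes of pyruvate entry and the citric acid cycle rose and 1 fell (11 and 2 after quantile normalization), and 6 did not pass. The median was 0.41, and the largest rise was that of Me1, given above. Mpc2, part of the mitochondrial pyruvate carrier, rose by 0.69 (SE 0.09), and Dlat, the acetyltransferase core of pyruvate dehydrogenase, went from 4.67 ± 0.766 to 7.16 ± 0.729 RPKM (difference 0.53, SE 0.08). Ldhd, the dehydrogenase of D-lactate, was the one that fell, from 22.2 ± 1.52 to 8.81 ± 0.58 RPKM (difference -1.24, SE 0.06), with no overlap. The kinase genes themselves (Pdk) were not analysed here, nor were genes of the complex later in symbol order, such as Pdha1 and Pdhb. The list also holds cytosolic enzymes, such as Me1. In glucose metabolism, 13 of 23 tested rose and 1 fell. Gbe1, the branching enzyme of glycogen synthesis, rose by 1.36 (SE 0.12), and Gpd2, which passes electrons from glycerol phosphate into mitochondria, by 1.33 (SE 0.07). G6pc, which releases glucose, overlapped fully at 61.1 to 118 and 81.9 to 118 RPKM (difference 0.17, SE 0.14, adjusted p = 0.309). Of 15 insulin signalling genes, 8 rose and 0 fell; 5 rose and 2 fell after median-ratio scaling, and 4 rose and 4 fell after quantile normalization. Igfbp1, a secreted binder of insulin-like growth factors that insulin represses, lay at 2.48 to 10.8 RPKM in controls and 13.7 to 46.3 at 3.5 g/L (difference 2.00, SE 0.32).

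Hormones that the liver secretes and the growth hormone axis moved both ways. Of 21 tested genes, 9 rose (42.9%) and 7 fell (33.3%), beside 38.6% and 12.7% of all tested genes. After either other scaling, 7 rose and 8 fell. Gdf15, a hormone of cell stress, rose from 0.703 ± 0.318 to 3.24 ± 0.796 RPKM (difference 1.32, SE 0.13). Fgf21, a fasting hormone and PPARα target, rose from 0.25 ± 0.14 to 0.937 ± 0.268 RPKM (difference 0.63, SE 0.09) and stayed at a low level. Inhbc, an activin subunit, fell by 0.85 (SE 0.09), Igfals, the partner protein of circulating insulin-like growth factor, by 0.70 (SE 0.16), and Fgfr4, a receptor for the bile acid hormone of the gut, by 0.51 (SE 0.07).

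Genes of the NRF2 antioxidant response rose, while several carboxylesterases fell and the enzyme that metabolises DCA did not pass the test. NRF2 is the transcription factor that answers oxidants and electrophiles; its own gene, Nfe2l2, went from 8.80 ± 1.08 to 26.6 ± 2.85 RPKM (difference 1.49, SE 0.08). Of 26 genes tested, 21 rose and 0 fell (17 and 0 after median-ratio scaling), with a median of 0.60. Gsta1 lay at or below 0.375 RPKM in controls and at 3.80 to 9.22 RPKM at 3.5 g/L (difference 2.56, SE 0.15), and Gsta2 rose by 2.5 (SE 0.16). Both are glutathione transferases with close copies, so reads may be shared. Ephx1, the microsomal epoxide hydrolase, went from 54.2 ± 8.64 to 229 ± 44.9 RPKM (difference 2.05, SE 0.14). Gstz1 lay at 109 to 131 RPKM in controls and 118 to 130.3 at 3.5 g/L (difference 0.08, SE 0.06, adjusted p = 0.28). RNA level does not report on the enzyme protein. Of 12 tyrosine and glyoxylate genes including it, 4 rose and 4 fell, none by 1 or more. Carboxylesterases hydrolyse drugs and lipid esters; 6 of 12 tested fell and 1 rose. Ces3b fell from 198 ± 26.4 to 62.5 ± 10.7 RPKM (difference -1.66, SE 0.12) and Ces2a by 1.35 (SE 0.11). Ces4a, chosen as one of the 12 largest falls, went from 3.95 ± 0.879 to 0.461 ± 0.213 RPKM (difference -1.75, SE 0.12).

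Drug-metabolising cytochromes and sex-biased liver genes changed in both directions. Of 35 Cyp1, Cyp2 and Cyp3a genes tested, 10 rose and 16 fell. Cyp2a4, a steroid hydroxylase higher in female liver, lay at 0.277 to 0.53 RPKM in controls and 22.9 to 92.8 RPKM at 3.5 g/L (median 32.0). Its difference was 4.79 (SE 0.26), and replicate 99 was about 2 times the next library. Cyp2a4 passed the filter through its 3.5 g/L libraries, so its levels are read and not its call, though the counts include it. Cyp2b9, also female-biased, lay at 0.226 to 1.32 and 15.8 to 129.5 RPKM (difference 4.53, SE 0.37), with replicate 99 again highest. Not all female-biased genes rose: of 16 listed, 8 were tested, 3 rose and 4 fell. Cyp2c40 lay at 17.0 to 131 RPKM in controls and 1.66 to 24.3 at 3.5 g/L (difference -2.86, SE 0.59), overlapping only through replicate 99. Of 15 male-biased genes, 8 fell and 1 rose, with a median of -0.70. Among those that fell, C6 and C8a count also in the complement list, and Cyp7b1, Elovl3 and Igfals in other lists. Hsd3b5, a steroid dehydrogenase of male liver, fell from 98.1 ± 13.3 to 27.5 ± 17.3 RPKM (difference -2.05, SE 0.36). Mup21, one of the urinary proteins that carry male scent, lay at 60.8 to 102 RPKM in controls and 2.23 to 25.2 at 3.5 g/L (difference -2.88, SE 0.39). Replicate 99 was lowest for both. The Mup genes are near-identical copies, so single values are uncertain, and controls split for some: Mup17 was 46.9 to 266 RPKM among controls alone. Cyp1a2, an oxidase of caffeine and aromatic amines, fell from 197 ± 29.1 to 89.3 ± 10.4 RPKM (difference -1.13, SE 0.11). Cyp2a5, the coumarin hydroxylase, rose by 1.64 (SE 0.22), with the caution that it is a close copy of Cyp2a4. Zonation markers gave no single direction. Of 9 periportal genes, 3 rose (33.3%) and 2 fell (22.2%), and 1 rose and 3 fell after either other scaling. Of 10 pericentral genes, 3 rose (30%) and 5 fell (50%). Over all tested genes, 38.6% rose and 12.7% fell. Of 9 genes of haem synthesis and breakdown, 5 rose and 2 fell (2 and 2 after median-ratio scaling).

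Genes of complement, clotting and the acute phase fell, with few tested members left uncalled. Members later than Olfr272 in symbol order, such as Saa and Serpin genes, were not analysed. Of 20 complement genes tested, 19 fell and 0 rose (median -1.06); of 17 clotting genes, 17 fell (median -0.69); of 19 acute-phase genes, 16 fell and 0 rose (median -0.84). C9, the pore-forming last component of complement, lay at 204 to 441 RPKM in controls (median 266) and 26.5 to 60.6 RPKM at 3.5 g/L (median 46.8). The groups were far apart, with a difference of -2.65 (SE 0.23, adjusted p = 9.46e-07), and the gene lies on chromosome 15 at 6445327 to 6498751. C8b and C8a, which precede it in the pore, fell by 1.76 (SE 0.12) and 1.48 (SE 0.09), and C4b, of the classical pathway, by 2.00 (SE 0.13). C3, the hub of the cascade, fell from 1272 ± 201 to 663 ± 78.8 RPKM (difference -0.93, SE 0.12). Among clotting genes, F11, of the contact pathway, fell by 1.51 (SE 0.08), F5, the cofactor that helps make thrombin, by 1.27 (SE 0.07), and F2, prothrombin itself, from 446 ± 15.8 to 219.9 ± 16.0 RPKM (difference -1.02, SE 0.06). Itih1, a serum inhibitor that binds hyaluronan, was tight within both groups: 159 to 189 RPKM in controls and 58.7 to 68.5 at 3.5 g/L (difference -1.44, SE 0.06, adjusted p = 1.90e-09). The 16 acute-phase genes that fell include receptors that drive the response, Il6ra (-1.40, SE 0.16) and Il1r1 (-1.40, SE 0.10), which are not secreted plasma proteins. The fibrinogen genes count in both the clotting and the acute-phase list.

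Control replicate 8 held the highest value of Lcn2, Fgb, Fgl1, Itih4 and Mt2. Fgb, a fibrinogen chain, lay at 1590.1 to 3049 RPKM in controls and 959 to 1287 at 3.5 g/L (difference -0.75, SE 0.15); replicate 8 set the upper end, and the other controls still lay above all treated libraries. The 7 neutrophil markers measured summed to 3.02 to 153.7 RPKM in controls, where Lcn2 of replicate 8 set the upper end, and to 0.976 to 4.65 at 3.5 g/L; Camp and Mpo were at a median of 0. The hepatocyte marker sum, which includes F2 and Fgb, was lower as well, and the part of cell composition in these falls was not tested. Without replicate 8, 19 complement, 17 clotting and 17 acute-phase genes fell. Other secreted proteins moved less evenly: of 20 apolipoprotein and lipoprotein genes, 6 rose and 8 fell (6 and 11 after either other scaling). Apoa4, a lipoprotein component made with dietary fat, fell by 1.31 (SE 0.13) and Apob, the core of very low density lipoprotein, by 0.63 (SE 0.09). Apoa2, of high density lipoprotein, rose from 3137 ± 282 to 5236 ± 501 RPKM (difference 0.74, SE 0.09), and Mttp, which loads lipid onto Apob, rose by 0.71 (SE 0.09). Alb fell by 0.43 (SE 0.12, adjusted p = 0.00726) as deposited and kept its call after median-ratio scaling. Its difference was 0 after quantile normalization. That method gives a gene with the same rank in every library the same value, so this 0 does not bear on the fall.

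Chaperones of the endoplasmic reticulum, where secreted proteins fold, fell as well. Of 20 tested, 13 fell and 2 rose (14 and 0 after median-ratio scaling), with a median of -0.62. Herpud1, which serves the removal of misfolded proteins, lay at 87.1 to 194 RPKM in controls and 26.8 to 65.2 at 3.5 g/L (difference -1.58, SE 0.23, adjusted p = 8.25e-05). Derl3, of the same removal pathway, lay at 1.04 to 5.49 and 0.0696 to 0.335 RPKM (difference -1.62, SE 0.24). Derl3 passed the filter through its controls alone, so its levels are read and not its call, though the counts include it. Creld2 lay at 20.0 to 89.3 and 17.4 to 27.9 RPKM (difference -1.03, SE 0.27), where the lowest control fell among the treated libraries. Hspa5, the main chaperone of the compartment, went from 399 ± 110.0 to 237 ± 29.8 RPKM (difference -0.71, SE 0.16), and Calr, calreticulin, from 311 ± 52.8 to 177 ± 23.3 RPKM (difference -0.80, SE 0.11). The genes that rose were Ero1l (0.22, SE 0.06) and the sensor Atf6 (0.20, SE 0.06), neither of which passed after median-ratio scaling (adjusted p = 0.123 and 0.261). Control replicate 8 was the highest control for Derl3 and Creld2 and the lowest for Herpud1; without it 12 chaperone genes fell and 2 rose.

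A known element of such promoters, the endoplasmic reticulum stress element, reads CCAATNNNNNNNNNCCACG. It was searched on both strands, a search chosen after the values were seen. RefSeq windows were found for 10 of the 13 chaperone genes that fell, and 7 of their 11 windows (63.6%) held the element: Calr, Canx, Creld2, Derl3, Dnajc3, Hsp90b1 and Hspa5. Over the whole chaperone list it stood in 7 of 16 windows (43.8%). Over all 32851 windows it stood in 39 (0.119%), and over the windows of tested genes in 0.184%. The 13 genes include Derl3, whose levels are read and not its call. Printed, with the element in capitals, are the windows of Hspa5, the main chaperone, and of Derl3 and Creld2. Those last had the most negative differences among members holding the element. Each is 5′ to 3′ on its gene's strand, which is plus for all 3, at chr2:34771840-34772139, chr10:75893148-75893447 and chr15:88819396-88819695 (GRCm38.p6). The element runs on the plus strand in Hspa5, beginning 65 bases before the start, and on the minus strand in Derl3 and Creld2, where it begins 156 and 126 bases before the start:
Hspa5: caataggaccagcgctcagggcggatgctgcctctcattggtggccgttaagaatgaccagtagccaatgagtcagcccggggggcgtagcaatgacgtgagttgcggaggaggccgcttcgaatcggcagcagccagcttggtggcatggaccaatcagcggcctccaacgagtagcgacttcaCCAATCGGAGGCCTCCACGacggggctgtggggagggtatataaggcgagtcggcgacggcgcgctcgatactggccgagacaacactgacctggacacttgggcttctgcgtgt
Derl3: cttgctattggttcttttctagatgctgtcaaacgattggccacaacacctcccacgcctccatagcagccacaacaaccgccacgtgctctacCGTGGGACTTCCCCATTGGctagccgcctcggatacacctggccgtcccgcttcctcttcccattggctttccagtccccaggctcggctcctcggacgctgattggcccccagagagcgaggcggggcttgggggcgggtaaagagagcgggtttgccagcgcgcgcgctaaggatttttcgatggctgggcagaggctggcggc
Creld2: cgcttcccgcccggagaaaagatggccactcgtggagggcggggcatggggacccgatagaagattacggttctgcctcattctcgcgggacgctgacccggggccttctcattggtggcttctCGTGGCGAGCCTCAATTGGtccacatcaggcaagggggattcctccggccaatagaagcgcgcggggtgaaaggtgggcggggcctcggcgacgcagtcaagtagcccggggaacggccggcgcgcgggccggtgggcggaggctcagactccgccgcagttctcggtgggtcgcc

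**Figure D3:**
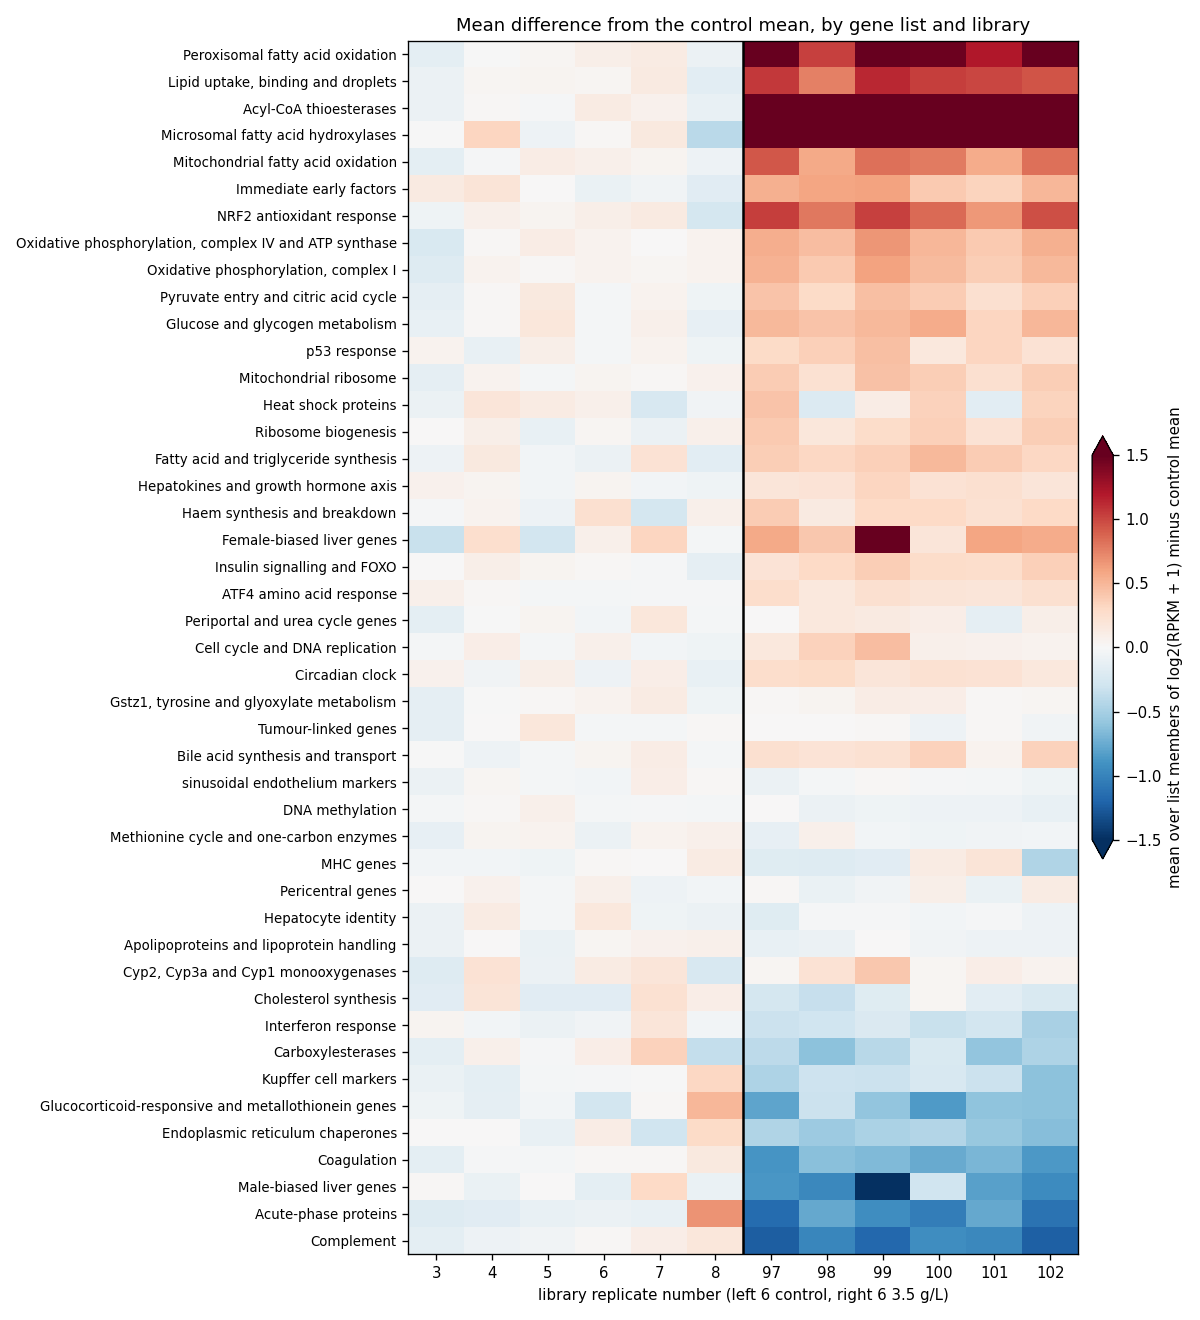
Each cell is the mean over a list's tested genes of log2(RPKM + 1) minus the control mean, for the 6 control libraries (left) and the 6 libraries at 3.5 g/L (right); colour saturates at 1.5. Complement scores lie between -1.24 and -0.93 in the treated libraries, acute-phase scores of control replicate 8 stand at 0.68, and female-biased scores of replicate 99 reach 1.79.

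Several nuclear receptors of hepatocytes rose; of 16 hepatocyte identity genes, 5 rose and 4 fell (5 and 7 after median-ratio scaling). Hnf4a, a master factor of hepatocytes, went from 94.8 ± 9.36 to 128 ± 4.14 RPKM (difference 0.43, SE 0.07), and Nr1h4, the bile acid receptor, from 16.5 ± 3.15 to 32.7 ± 2.57 RPKM (difference 0.96, SE 0.10). The drug receptors Nr1i3 and Nr1i2 rose by 0.55 (SE 0.11) and 0.53 (SE 0.08). Of 19 bile acid genes, 8 rose and 5 fell (8 and 8 after either other scaling). The transporters Abcb4, which exports phospholipid into bile, and Abcc3, an exporter at the blood side, rose by 1.41 (SE 0.10) and 1.51 (SE 0.18). Cyp7a1, the rate-limiting enzyme of bile acid synthesis, was spread widely at 3.5 g/L, from 3.80 to 17.2 RPKM against 2.27 to 4.54 in controls (difference 1.03, SE 0.28, adjusted p = 0.00732). Cyp7b1, of the alternative route and male-biased, lay at 70.2 to 132 RPKM in controls and 13.3 to 41.8 at 3.5 g/L (difference -2.09, SE 0.24). Of 19 cholesterol synthesis genes, 9 fell and 4 rose. Mvk, mevalonate kinase, fell by 0.97 (SE 0.12), Fdps, which makes farnesyl diphosphate, by 0.84 (SE 0.15) and Cyp51, which demethylates lanosterol, by 0.52 (SE 0.10). Of 18 methionine cycle genes, 3 rose and 6 fell (2 and 11 after median-ratio scaling); Mat1a, which makes the methyl donor S-adenosylmethionine in liver, went from 343 ± 55.7 to 682 ± 75.4 RPKM (difference 1.00, SE 0.11). Dnmt1, the maintenance DNA methyltransferase, lay at 1.49 to 1.74 and 1.41 to 2.05 RPKM, overlapping groups with a difference of 0.02 (SE 0.06, adjusted p = 0.819), and Dnmt3b, a de novo enzyme, fell by 0.41 (SE 0.06).

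Clock genes differed sharply in a few members. Nr1d1, a nuclear repressor of the clock, lay at 1.05 to 2.17 RPKM in controls and 13 to 25.0 at 3.5 g/L (difference 2.90, SE 0.14, adjusted p = 5.10e-09). Nr1d2, its relative, rose by 1.83 (SE 0.14). Of the 2 clock genes that fell, Arntl, an activator of the clock, was 6.55 to 7.86 RPKM in controls and 0.927 to 7.67 at 3.5 g/L (difference -0.94, SE 0.26), and Nfil3, a repressor that binds D-box elements, was 12.1 to 13.7 and 2.62 to 8.49 RPKM (difference -1.33, SE 0.20). In both genes replicate 98 lay nearest the controls, and for Arntl it lay among them. Of 14 clock genes in all, 6 rose (42.9%) and 2 fell (14.3%), near the shares of all tested genes, 38.6% and 12.7%. After either other scaling, 4 rose and 5 fell. The hour at which livers were taken is not in the labels. Of 11 glucocorticoid-responsive genes, 5 fell and 0 rose; Fkbp5 fell by 0.59 (SE 0.10), and Mt2, a metallothionein, lay at 3.39 to 38.1 RPKM in controls, where replicate 8 was highest, and 0.0615 to 4.23 at 3.5 g/L (difference -2.14, SE 0.48). Of 21 genes of the ATF4 amino acid response, 8 rose (38.1%) and 2 fell (9.52%), near the 38.6% and 12.7% of all tested genes. After median-ratio scaling 7 rose and 5 fell, and after quantile normalization 5 and 5. Among its members, Atf3, a stress-induced factor, rose by 1.00 (SE 0.07). Ddit4, an inhibitor of growth signalling, fell by 0.85 (SE 0.10). Of 11 immediate early genes, 7 rose and 1 fell; Egr1 rose by 1.44 (SE 0.26) and Jun by 1.24 (SE 0.11), both growth and stress factors. Heat shock genes were mixed, with 9 of 19 rising and 1 falling (6 and 3 after median-ratio scaling, 4 and 3 after quantile normalization), and the one that fell, Hspa1b, went from 13.4 ± 5.32 to 4.03 ± 1.86 RPKM (difference -1.52, SE 0.28); it shares most of its sequence with Hspa1a.

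Growth-related genes gave few calls among cell cycle members and more in ribosome production. Of 37 cell cycle and replication genes listed, 22 were tested and 4 rose; the other 15 were below the filter. Ccnd1, cyclin D1, which starts the cycle, lay at 3.35 to 5.15 RPKM in controls and 6.47 to 16.7 at 3.5 g/L (difference 1.26, SE 0.16, adjusted p = 2.86e-05). Cdc20, which is needed in mitosis, lay at 0.461 to 1.03 and 1.06 to 4.72 RPKM, where replicates 98 and 99 were above the other 4 treated libraries (difference 0.75, SE 0.25, adjusted p = 0.0217). Mki67, a marker of dividing cells, was 1.10 ± 0.298 RPKM in controls and 1.68 ± 1.09 at 3.5 g/L (adjusted p = 0.305). Of 10 genes of the p53 response, 6 rose and 0 fell, led by Aen, a nuclease of cell death (0.74, SE 0.06), and Fas, a death receptor (0.71, SE 0.10). Cdkn1a, the best known target of p53, did not pass (-0.49, SE 0.31, adjusted p = 0.207). Of 28 ribosome biogenesis genes, 19 rose and 0 fell, but 12 rose and 1 fell after median-ratio scaling; Nop58, a nucleolar protein, rose by 0.76 (SE 0.13). Among 14 genes linked to liver tumours, 4 rose (28.6%) and 3 fell (21.4%), beside 38.6% and 12.7% of all tested genes. After median-ratio scaling 2 rose and 5 fell, and after quantile normalization 1 and 4. Egfr, the epidermal growth factor receptor, fell by 0.95 (SE 0.17) and Myc rose by 0.74 (SE 0.16), both with overlapping groups. Afp and Igf2, fetal liver genes, were below the filter in these libraries, at no more than 0.638 and 0.553 RPKM.

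All called genes of the interferon, MHC and Kupffer cell lists fell. Of 29 interferon response genes, 20 fell and 0 rose (median -0.26). Of 12 MHC genes, 6 fell and 0 rose. The class II genes of that list were not called, with differences from -0.003 to 0.26. Irf7, which amplifies interferon signals, fell from 5.18 ± 0.78 to 2.38 ± 0.362 RPKM (difference -0.87, SE 0.09), and H2-K1, a classical class I antigen, by 0.42 (SE 0.10). Of 14 markers of Kupffer cells, the resident macrophages, 11 fell and 0 rose; Clec4f, the most specific, lay at 20.0 to 26.7 RPKM in controls and 11.7 to 18.2 at 3.5 g/L (difference -0.55, SE 0.10). The summed level of these markers was 116.1 to 168.0 RPKM in controls and 78.8 to 108.0 at 3.5 g/L. Without control replicate 8, which had the highest C1qb and Mpeg1, 11 Kupffer markers and 20 interferon genes fell. The part of Kupffer cells in the interferon and MHC values was not tested. Of 15 sinusoidal endothelial markers 2 fell (8 after median-ratio scaling), with sums of 99.4 to 116.7 RPKM in controls and 99.7 to 111.0 at 3.5 g/L. Of 11 stellate cell and fibroblast markers, 1 rose and 1 fell (0 and 6 after median-ratio scaling), with sums of 81.9 to 134.7 and 73.9 to 101.1 RPKM. For erythroid markers the sums were 318.3 to 1071 and 316.0 to 659.6 RPKM, and 4 of 9 fell (1 without control replicate 8 or without replicate 99). Among these 4, Hbb-b2 and Hbb-bt have identical results (-0.84, SE 0.30), so the count may hold 1 measurement under 2 names. Among bile duct markers, Krt23 was called as a rise, and Krt19 (0.14, SE 0.08) did not pass. Krt23 passed the filter through its 3.5 g/L libraries alone, so its levels are read and not its call. The sums of 2.48 to 3.14 and 5.13 to 6.42 RPKM differ mainly by Krt23, which went from 0.201 ± 0.0715 to 3.01 ± 0.579 RPKM. Of 15 lymphocyte markers, only Cd4 passed the filter, through its control values, so its call is not read; the sums were 1.37 to 2.31 and 1.13 to 6.96 RPKM and overlapped. Of 5 exocrine pancreas markers, only Cela1, an elastase, was tested; it went from 10.2 ± 0.893 to 4.2 ± 0.432 RPKM, and the sums were 8.95 to 11.5 and 4.58 to 5.15 RPKM with Cpa1 at a median of 0. The adipocyte markers Adipoq, Cfd and Lep had a median of 0.

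Set directly against the 6 libraries at 2 g/L, in a limma fit to all 24 libraries and 6540 genes, 675 genes differed (10.3%): 313 were higher at 3.5 g/L (4.79%) and 362 lower (5.54%). Of these, 18 were higher and 20 lower by at least 1. The 2 doses carry different title tags, L3 and L2, so tag and dose cannot be told apart here either. Acot3 was 3.32 ± 2.89 RPKM at 2 g/L and 34.0 ± 17.6 at 3.5 g/L, a difference of 3.14 (SE 0.32). Cyp2a4 was 5.28 ± 3.94 RPKM at 2 g/L (difference 2.81, SE 0.32), and Cyp2b9 was 6.73 ± 4.25 RPKM (difference 2.52, SE 0.38). In all 3 genes the highest library at 2 g/L lay below the lowest at 3.5 g/L. Cyp4a14, Cyp4a10 and Ehhadh, at far higher levels, did not pass against 2 g/L (adjusted p = 0.184, 0.303 and 0.328). Krt23, a keratin of bile ducts and stressed hepatocytes, was 0.252 ± 0.0806 RPKM at the lowest dose and 0.632 ± 0.261 at 2 g/L. At the highest dose it was 3.01 ± 0.579 RPKM (difference from 2 g/L 1.30, SE 0.10). It passed the filter of this fit through its 3.5 g/L libraries, so its call is not read here either. Angptl4 was 16.8 ± 3.04, 32.2 ± 13.8 and 66.7 ± 3.38 RPKM at 1, 2 and 3.5 g/L and 27.0 ± 3.07 in controls, so the mean at 1 g/L lay below control. The libraries at 3.5 g/L all lay above those of every lower dose. The difference from 2 g/L was 1.16 (SE 0.21). Gm15441, an RNA antisense to Txnip, lay at 2.89 to 28.4 RPKM at 3.5 g/L with replicate 98 lowest, was listed at 0 in 4 of 6 controls, and was 6.15 ± 6.87 RPKM at 2 g/L (difference 2.04, SE 0.56); reads of the overlapping gene could be counted with it if strand was not used.

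**Figure D4:**
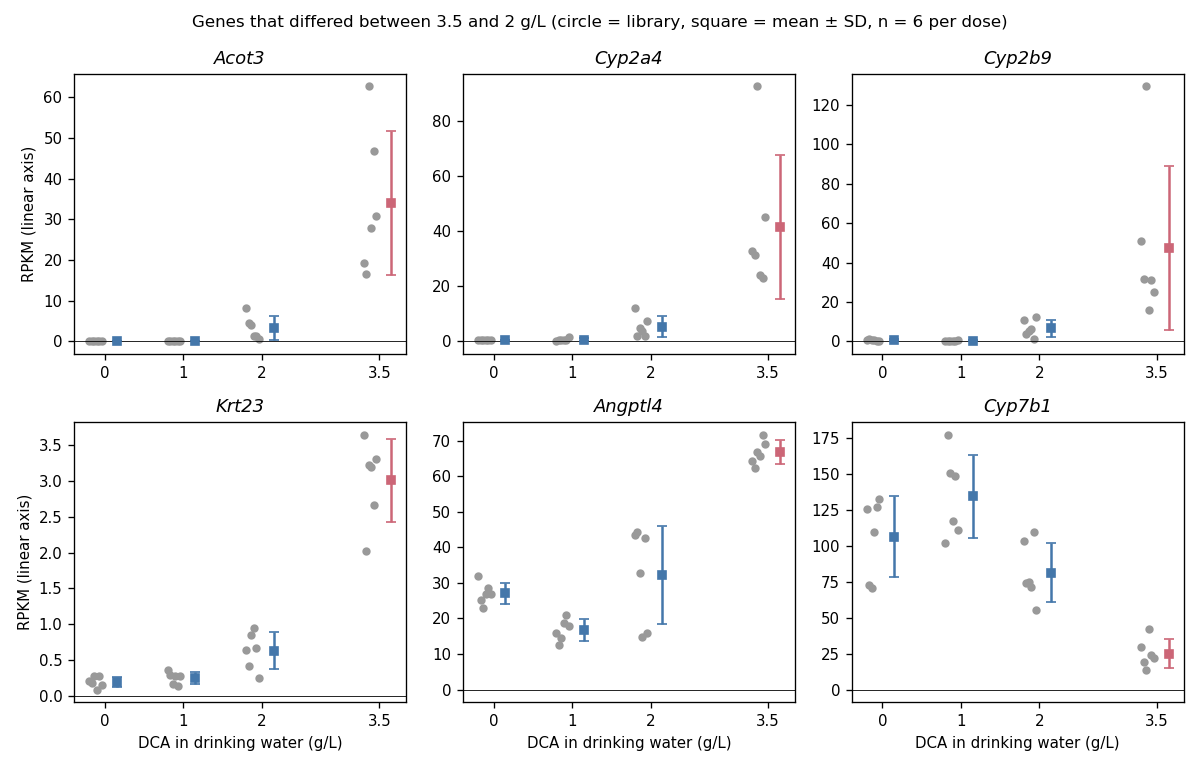
RPKM on linear axes against DCA dose for 6 genes that differed between 3.5 and 2 g/L; circles are libraries, squares with bars are means ± SD of 6 libraries. Acot3, Cyp2a4, Cyp2b9 and Krt23 are at most 1.44 RPKM at 0 and 1 g/L and highest at 3.5 g/L, and Cyp7b1 is lowest there at 13.3 to 41.8 RPKM.

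Genes lower at 3.5 than at 2 g/L included Cyp7b1, at 81.2 ± 20.7 RPKM at 2 g/L (difference -1.71, SE 0.22, adjusted p = 3.29e-05), Hsd3b5 (difference -1.42, SE 0.31) and C9, at 101 ± 14.2 RPKM at 2 g/L (difference -1.22, SE 0.19). By list, 13 of 20 complement, 11 of 19 acute-phase and 6 of 15 male-biased genes were lower at 3.5 g/L and 0 were higher. Replicates 74 and 75 of 2 g/L had high Lcn2, and without them 10, 7 and 4 were lower. Kupffer markers were lower in 7 of 14, and in 0 without those libraries. Cholesterol synthesis genes were lower in 7 of 19, and in 1 without them. Higher at 3.5 g/L were 5 of 10 thioesterases, 5 of 20 lipid uptake genes and 9 of 36 Cyp1, Cyp2 and Cyp3a genes. Of 30 cell cycle genes, 7 were lower at 3.5 than at 2 g/L and 0 higher; against control in the same fit, 21 of these 30 rose at 2 g/L, where 41.9% of all genes rose, and 7 rose at 3.5 g/L, where 38.6% did. The counts against control share the control libraries. Only 22 of these 30 cell cycle genes passed the filter in the control and 3.5 g/L libraries alone. The others entered with the help of values at 1 and 2 g/L, which favours genes that are high there. The counts over 30 genes are therefore not read as a difference between doses. Mcm6, part of the replication helicase, was lower by 0.62 (adjusted p = 0.0142). Lpin1 and Alb did not pass against 2 g/L (adjusted p = 0.487 and 0.663).

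Against 1 g/L, 2214 of 6540 genes differed (33.9%), with 1583 higher at 3.5 g/L (24.2%) and 631 lower (9.65%). Titles at 1 g/L carry the tag L1 or L2 and never L3, so tag and dose cannot be told apart in this comparison. With the controls, all L1, the 1 g/L libraries share the tag only in part. At 1 g/L, where 8.35% of all genes rose against control and 3.03% fell, 0 of 10 hydroxylases, 0 of 10 thioesterases, 1 of 17 peroxisomal and 0 of 20 mitochondrial fat oxidation genes rose, and 1 mitochondrial gene fell. Against 1 g/L directly, 5, 8, 15 and 18 of these genes were higher at 3.5 g/L and 2, 0, 1 and 1 lower. At the lowest dose Cyp4a14 was 2.69 ± 2.23 RPKM, against 0.925 ± 0.978 in controls. There Acot1 was 2.15 ± 0.65 RPKM, Acot4 1.32 ± 0.295 RPKM and Cyp4a32 6.74 ± 0.754 RPKM, against 1.78 ± 0.787, 1.57 ± 0.289 and 6.44 ± 2.44 in controls. At 3.5 g/L the same genes were 87.1 ± 23.9, 21.3 ± 5.19 and 60.3 ± 3.43 RPKM.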

How the data were processed

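Total RNA from frozen mouse liver was measured by rRNA-depleted, stranded RNA sequencing in 24 libraries. The authors deposited 1 table of RPKM values per gene and library, in which 0 is written as 1e-04; CASAVA, STAR 2.4, Partek and the build mm10 are named, per the submitters' processing notes, with no role or order. The annotation and whether counting used strand are not given in the sources used here, so overlapping and antisense genes may share reads. RPKM holds no read counts, so the sampling error of a value is unknown and relative depth was read from the steps of low values only. The table held covers 15582 genes, in symbol order up to Olfr272, after dropping 1 incomplete line and 13 lines whose symbols read as dates; genes later in that order (Pdk, Scd, Slc and Ugt genes among them) were not analysed here.

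Samples were grouped by dose from their labels. Differences were tested with limma 3.58.1 (R 4.3.3; lmFit, then eBayes with trend) on log2(RPKM + 1), two-sided, with Benjamini-Hochberg adjustment over all tested genes and calls at an adjusted p under 0.05. The comparison with control used 12 libraries, and those with 1 and 2 g/L used all 24. On simulated data, the test recovered 95% of genes changed 1.5-fold and 99% of those changed 2-fold, with 10 calls among 6106 unchanged genes. The simulation used independent normal noise and shifted only a small part of the genes, each with a mean log2(RPKM + 1) above 1. Shifts were made on that scale, with no difference in scaling between libraries. It therefore does not cover low genes or the scaling effect, and does not give the share of false calls here. The comparison and the gene lists were chosen with earlier results of these data known, and lists were given no test of their own. Genes named are the 12 largest rises and falls without overlap, up to 4 called members per list and direction, a list of 25 genes of known role, the 8 largest rises and falls against 2 g/L, and the 6 most abundant called genes. Some genes that this rule names are not reported here. C3, Calr, Cdkn1a, Hspa5, Mcm6, Mgll, Mki67 and Nfe2l2, the bile duct and other cell type markers not called, and the genes with a stress element, fall outside that rule and were chosen after their values were seen. Alternatives were a pseudocount of 0.1 or 0.5, other filters, median-ratio and quantile scaling, a robust fit, other sets of libraries and leaving out each library; those without control replicate 8, replicate 99 or replicates 74 and 75, and other scalings of the list counts against 2 g/L, were chosen after seeing the data. Genes with close copies (Cyp4a, Cyp2a, Cyp2b, Cyp2c, Mup, Gsta, Acot, Hbb, H2) have uncertain separate values. Gene positions are from GENCODE vM21.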

Additional observations from a re-analysis of the deposited data

Results flagged for a closer look

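In 282 groups of 6 libraries, control and 3.5 g/L for each gene named, 24 values stood far from the other 5 by Dixon's ratio of gap to range; chance gives about 1 in 20. Control replicate 8 gave 8 of them. Its Lcn2 was 153 RPKM, its Fgl1 284, its Fgb 3049, its Itih4 808 and its Mt2 38.1, all proteins or inducible genes of the acute phase. The same library was highest in the Kupffer cell genes C1qb at 18.6 RPKM and Mpeg1 at 11.6, and in the chaperone Calr at 414. All 8 genes are lower at 3.5 g/L, though Lcn2 did not pass the test (adjusted p = 0.0976). Without that library its difference was -0.75 (adjusted p = 0.0469).

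Replicate 99 of 3.5 g/L was far above the others of its group in Cyp2a4 at 92.8 RPKM, Cyp2b9 at 129.5, Cyp2c40 at 24.3 and Mpc2 at 88.4. The first 3 are female-biased cytochromes, and the same library was lowest in the male-biased Hsd3b5 and Mup21. Replicate 97 was highest in Cd36 at 20.0 RPKM and Jun at 6.08, and replicate 100 in the carboxylesterase Ces2a at 36.0. Replicate 102 was lowest in Cela1, at 3.36 RPKM.

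Among the other controls, replicate 4 was far above its group in Cyp4a14 at 2.84 RPKM, Jun at 1.87 and Lpin1 at 82.7. Replicate 5 was highest in Cd36 at 5.76 RPKM and Igf2 at 0.553, replicate 7 in Gstz1 at 131 and replicate 3 in Fgfr4 at 8.09. Replicate 3 was lowest in F2, at 416 RPKM.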

How the results depend on the processing

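The number of genes called against control was within 1.5 times of 3233 under every alternative run, and from 2983 to 3189 when 1 library was left out. Its split by direction was not: 1457 rose and 1408 fell after median-ratio scaling, and 1355 rose and 1377 fell after quantile normalization. Leaving out 1 library gave 2256 to 2415 rises, at most 797 falls and 204 to 220 genes called with a difference of 1 or more; with a pseudocount of 0.1 in place of 1 that last count was 329 against 212. The count against 2 g/L went from 675 to 446 when only the 12 libraries compared were fitted, to 422 without replicates 74 and 75 of 2 g/L, and to between 465 and 654 without 1 library; against 1 g/L, leaving out 1 library gave 1923 to 2186. Of 138 named genes tested, 134 kept their direction and their side of the threshold under each scaling taken alone. Atf6, Cpt1a and Ero1l lost their calls after quantile normalization and after median-ratio scaling. Alb lost its call after quantile normalization only, where its rank fixed its value. Cpt1a and Cyp4f13 lost theirs in some fits without 1 library. Mcm6 passed after median-ratio scaling (-0.31, adjusted p = 0.0467) and without replicate 99. The cause was not tested. No paired analysis was possible because replicate numbers are not shared between doses. Read counts are not given with RPKM values, so the limit that depth sets for low genes could not be stated.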
